A study of Danio rerio with 4 samples.

Results

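Wnt signalling genes were followed through single-cell RNA-seq libraries of the zebrafish trunk endothelium, from the aorta and veins to the haemogenic endothelium and the first blood cells. Genes were taken by symbol: the numbered wnt, fzd, dvl, sfrp, dkk and rspo genes, with lrp5, lrp6, ror1, ror2, frzb, wif1 and wls. The symbols matched 66 of the 36351 rows of the gene list, and 61 of them had at least 20 unique molecular identifiers (UMIs, each standing for 1 captured mRNA molecule) over the 4 libraries. These 61 members were 22 Wnt ligands, 1 gene for ligand release (wls), 18 receptors and coreceptors, 5 dishevelled genes, 12 secreted antagonists and 3 R-spondins. The 5 rows left out were wnt8a with 0 UMIs, wnt2ba and wnt8b with 7 each, fzd9a with 8 and rspo4 with 10, and the lowest members kept were wnt7ba with 22 and wnt6b with 27. The symbol lrp5 stood on 3 rows with different identifiers, which were kept apart. How molecules were divided among these rows is not given in the sources used here, so the level of each lrp5 row is uncertain. No row of the gene list carried the symbol lrp6, so the level of this coreceptor could not be read.

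The samples were GFP+ cells sorted from dissected trunks with the aorta-gonad-mesonephros region of Tg(kdrl:GFP) zn1 embryos at 26 h post fertilization (hpf), a line whose GFP follows the endothelial gene kdrl. There was 1 library in each of 4 groups: the miR-128 mutant (miR-128Δ/Δ, which lacks the microRNA genes miR-128-1 and miR-128-2), csnk1a1 g3UTR, jag1b g3UTR and wild type (WT). For both g3UTR groups, WT embryos were injected at the 1-cell stage with Cas9 mRNA and a guide RNA against the miR-128 site in the 3′UTR of csnk1a1 or jag1b, so these are injected embryos in which editing can be mosaic, whereas no injection is described for the other 2 groups. Each library pooled many embryos of its group.

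In Wnt signalling, secreted ligands, released from the cell with the help of Wls, bind Frizzled receptors together with an Lrp or Ror coreceptor, and dishevelled proteins relay the signal to β-catenin or to the planar polarity branch. Sfrp, Frzb, Wif1 and several Dkk proteins act outside the cell, by binding the ligands or the Lrp coreceptor, and R-spondins prolong the life of the receptors at the membrane. In the embryo, Wnt signals are known to act on arterial identity and sprouting, and in zebrafish wnt16 in the somite and wnt9a and fzd9b around the aorta are known for their part in the formation of haematopoietic stem cells.

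The libraries held 9788 cell barcodes for miR-128 mutant cells, 9380 in csnk1a1 g3UTR, 11482 in jag1b g3UTR and 12918 in WT, with 69980329 to 144258953 UMIs. Cells with under 200 genes, over 35000 UMIs or over 20% mitochondrial UMIs were left out, which kept 9466, 9273, 11412 and 12441 cells in the same order of libraries. The median UMIs per kept cell were 9497, 7619, 5623 and 10407, so jag1b g3UTR was the shallowest library per cell and WT the deepest. Between 26 and 54 barcodes were shared by any 2 libraries, at most 0.434% of the first library's cells. Per the file headers, Cell Ranger 5.0.0 made the matrices of the miR-128 mutant and WT, and 6.0.1 made both g3UTR matrices, so a difference between a g3UTR library and WT cannot be told apart from the software version or from the injection. In endothelial cells csnk1a1 had 365.9 counts-per-million (CPM, a gene's UMIs scaled to all UMIs of the class) in miR-128 mutant cells, 364.9 in csnk1a1 g3UTR, 368.5 in jag1b g3UTR and 349.7 in WT, and jag1b had 9.05, 5.89, 6.25 and 6.83 CPM. On this scale, csnk1a1 was slightly above WT in the g3UTR library aimed at it, as in the miR-128 mutant and jag1b g3UTR. In its own g3UTR library jag1b was slightly below WT. For csnk1a1 g3UTR over WT, median-of-ratios size factors (set by the median gene) were 1.149 times those of total UMIs. That is more than the difference in csnk1a1, so the direction of csnk1a1 rests on the scale. For jag1b g3UTR over WT the median-of-ratios factors were 1.331 times those of total UMIs. With them, jag1b in its own g3UTR library lay further below WT, so the size of that difference rests on the scale. These counts read neither the deleted microRNA nor the edited bases.

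Cells were put into classes by marker genes, none of which is a member. Endothelial cells (ECs) needed at least 7 of 12 pan-endothelial genes, such as kdrl, cdh5 and tie1, and made up 81.95% of kept miR-128 mutant cells, 70.94% in csnk1a1 g3UTR, 68.65% in jag1b g3UTR and 81.07% in WT. They were divided on a score of arterial against venous and lymphatic markers into 6984 arterial, 2614 tip (apln and esm1) and 18981 venous ECs, and 2794 others. The 882 haemogenic ECs (at least 2 of runx1, gata2b, gfi1aa, adgrg1 and ikzf2) were taken at any value of this score. The arterial markers summed to 1442 to 2418 CPM in haemogenic, 1319 to 1704 in venous and 5846 to 6723 in arterial ECs. The venous and lymphatic markers summed to 1195 to 2204, 6837 to 9049 and 1263 to 1848 CPM. A difference between haemogenic and arterial ECs can thus also follow arterial identity, which was not tested. Nascent haematopoietic stem and progenitor cells (nHSPCs; myb with at least 1 other gene of a panel that holds ptprc and ikzf1, below the endothelial limit) numbered 1337. Erythroid, myeloid and 5 outside classes (trunk mesenchyme, muscle, neural, epidermis and notochord) were gated likewise, whereas neural crest and pronephros had under 20 cells a library and were left out. The label of endothelial cells thus held for most cells of each library. The 12 pan-endothelial genes summed to 5710 to 14900 CPM in the 4 EC classes, 459.3 to 1132 in nHSPCs and 37.6 to 455.5 in the erythroid, myeloid and outside classes. The marker panel of each outside or blood class was also summed in ECs, as a share of its level in its own class. This share was between 0.0186% and 0.313% for the notochord, epidermis, muscle, neural, erythroid and myeloid panels, and 1.21% to 1.82% for trunk mesenchyme. The same panels set the gates of these classes, and genes found in many cells of a library were left out of them. Low shares are thus partly built in, and they cannot gauge free RNA. Between 217 and 274 ECs a library lay within 0.1 of the limit of the arterial class on this score, so the classes are ranges of it.

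**Figure D1:**
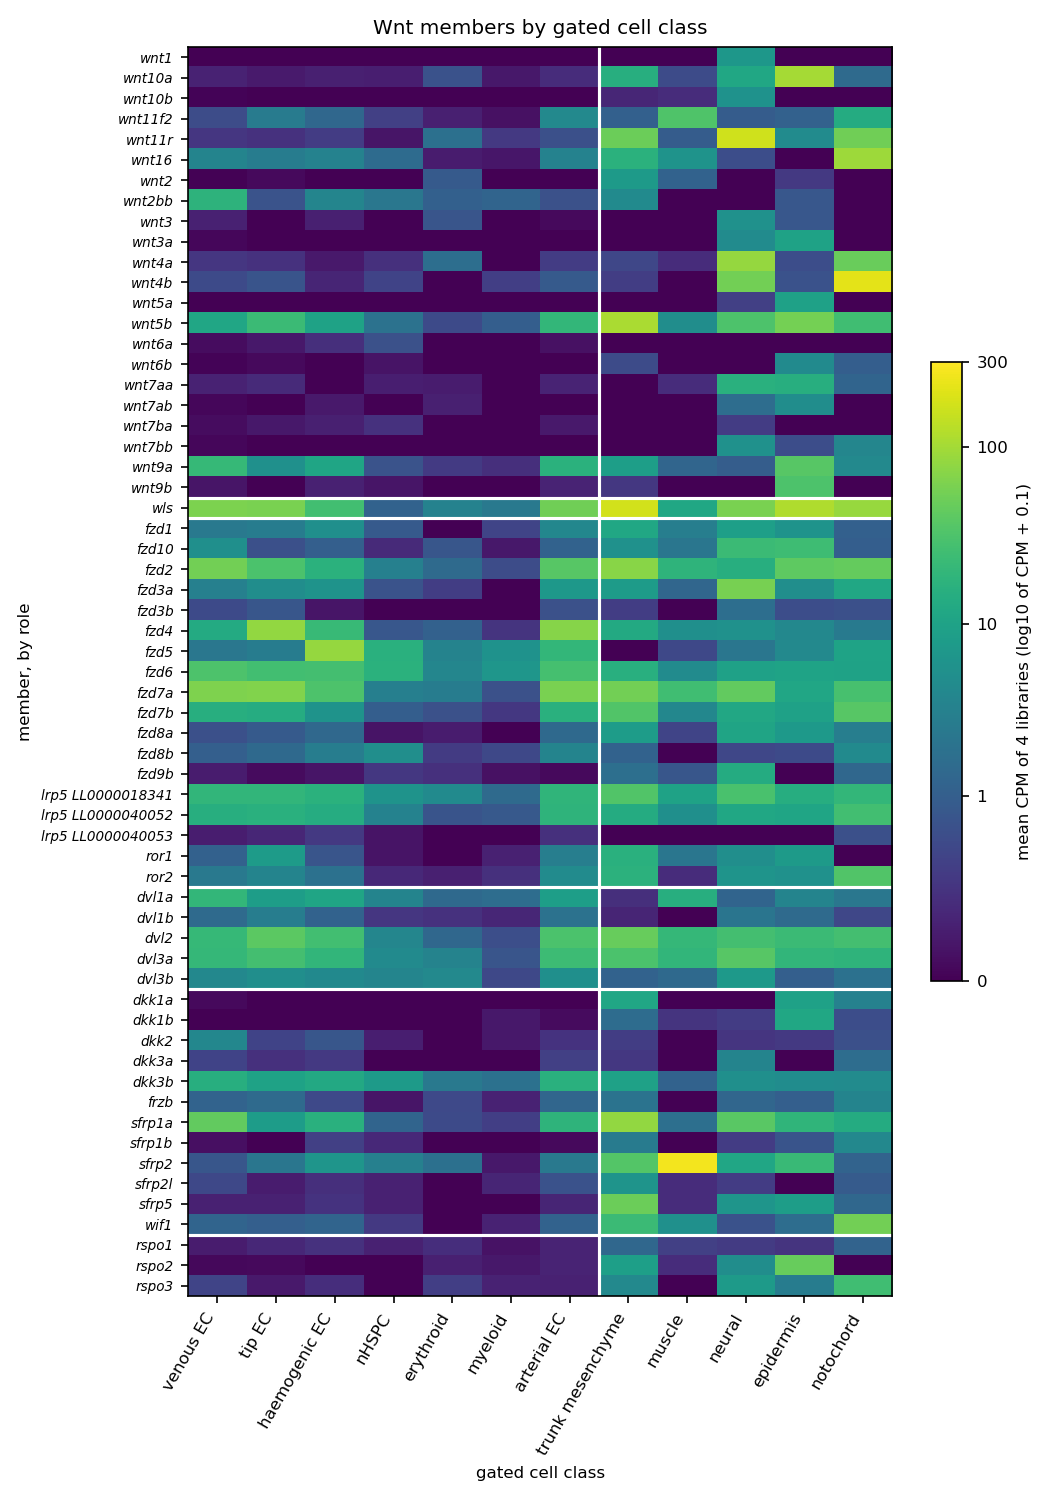
Mean level of each member (rows, by role) in 12 gated cell classes (columns), in CPM on a log10 colour scale after adding 0.1, over the 4 libraries. wls, fzd2, fzd7a, dvl2 and dvl3a are bright across the EC classes, fzd5 stands out in haemogenic EC and wnt2bb in venous EC, and most ligands are bright outside the endothelium.

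In ECs, 17 of the 61 members reached 10 CPM in at least 1 library, and 28 stayed under 1 CPM in every library. The 17 were 3 ligands (wnt2bb, wnt5b and wnt9a), wls, 6 Frizzled receptors (fzd2, fzd4, fzd5, fzd6, fzd7a and fzd7b), lrp5 rows LL0000018341 and LL0000040052, 3 dishevelled genes (dvl1a, dvl2 and dvl3a) and 2 antagonists (sfrp1a and dkk3b). UMIs of this 3′ chemistry count molecules and need no scaling by gene length. How fully the 3′ end of each gene was captured and annotated was not tested, so an order of level between members is approximate.

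Classes were compared by edgeR's quasi-likelihood test on UMIs summed per class and library, with the library as a block and Benjamini-Hochberg adjustment over 15531 genes, of which 43 were members. The 18 members that did not pass the filter on low counts have values but no test, and members that passed because 1 class holds them had to differ between classes. A gene was called at an adjusted p under 0.05 and a log2 fold change of at least 1. The 4 libraries stand for 4 genotypes or treatments, so they measure how a class difference holds over these libraries, and the first 5 comparisons share the arterial ECs. Venous against arterial ECs, 5 members were higher, where 9.16% of all genes were called higher, and 8 were lower, where 7.91% were. Tip against arterial ECs, 1 was higher against a background of 1.24% and 4 were lower against 3.69%. Haemogenic against arterial ECs, 3 were higher against 8.31% and 9 lower against 7.36%. In nHSPCs 2 were higher than in arterial ECs against 19.3% of all genes, and 22 were lower against 22.8%. In erythroid and myeloid cells 1 was higher against 17.8%, and 28 were lower against 27.6%. ECs (the mean of 4 EC classes) against outside cell types (the mean of 5) had 9 members higher, where 19.3% of genes were, and 11 lower, where 12.1% were. With DESeq2 this last comparison had 7 members higher and 20 lower, and over all genes 2213 higher and 3812 lower, in place of 2996 higher and 1872 lower with edgeR. The members' median log2 difference was −0.01 in venous, −0.21 in tip, −0.47 in haemogenic ECs and −1.64 in nHSPCs, all against arterial ECs, where the medians over all genes were 0.04, −0.05, −0.08 and −0.02.

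wnt2bb, a ligand of the Wnt2 group known in zebrafish for its part in liver formation, was high in the vein. Its level in venous ECs was 21.1 CPM in miR-128 mutant cells, 16.6 in csnk1a1 g3UTR, 16.7 in jag1b g3UTR and 16.3 in WT, against 0.327, 0.455, 1.01 and 0.715 CPM in arterial ECs. The class levels did not overlap, and the log2 difference was 4.87 ± 0.27 (SE). wnt2bb passed the filter on low counts mainly through the venous sums, so this difference was fixed in advance. Tip ECs had 0.561 to 0.748 CPM. Haemogenic ECs had 1.41, 5.36, 5.47 and 2.65 CPM, above arterial ECs by 2.18 ± 0.45 on the log2 scale (edgeR adjusted p = 0.00016), a call that was lost with a stricter gate (1.49). Among the nHSPCs it had 1.19 to 2.90 CPM, higher than in arterial ECs by 2.07 ± 0.44 (adjusted p = 7.1e-05). Outside the vessels, trunk mesenchyme had 2.31 to 8.53 CPM and epidermis 0 to 2.23, and no UMI was found in muscle, neural or notochord cells of any library.

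wnt9a was found in artery and vein and was lower in tip cells. Venous ECs had 18.6 CPM in miR-128 mutant cells, 19.7 in csnk1a1 g3UTR, 27.0 in jag1b g3UTR and 20.3 in WT, and arterial ECs 20.1, 12.8, 13.1 and 20.8. Tip ECs had 6.34, 4.49, 5.98 and 5.07 CPM, below every arterial value, with a log2 difference of −1.66 ± 0.24 (edgeR adjusted p = 1.0e-06). Haemogenic ECs had 7.33, 8.25, 15.5 and 12.8 CPM and nHSPCs 0.207 to 0.893, the second a difference of −4.49 ± 0.42 (adjusted p = 2.8e-13). ECs were called higher than outside cells by 1.27 ± 0.27 (adjusted p = 7.5e-05), though without the WT library by 0.96, which is under the limit. Epidermis was the outside class that held most of it, with 13.0 to 61.0 CPM.

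wnt5b, a ligand of the planar polarity branch, had its highest EC level in tip cells, with 21.9, 23.9, 23.9 and 23.6 CPM, next to 16.2, 22.7, 22.7 and 19.3 in arterial ECs. This difference was not called (log2 difference 0.20 ± 0.12, edgeR adjusted p = 0.32). Haemogenic ECs had 8.18, 9.08, 14.6 and 7.52 CPM, lower than arterial ECs in each library (−1.28 ± 0.16, adjusted p = 1.2e-08), and nHSPCs had 1.45 to 2.37 (−3.24 ± 0.20, adjusted p = 5.2e-19). Trunk mesenchyme had 96.8 to 140 CPM, and ECs were lower than outside cells by −1.19 ± 0.10 (adjusted p = 6.7e-14), or −0.93 and uncalled with no filter on low counts.

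wnt11f2, another ligand of the polarity branch, was low in the endothelium and lower in vein than in artery. Venous ECs had 0.230 to 0.832 CPM (log2 difference −2.87 ± 0.29, edgeR adjusted p = 1.1e-11) and haemogenic ECs 0.282 to 2.73 (−2.08 ± 0.46, adjusted p = 0.00024), against 3.14, 6.55, 4.56 and 2.46 CPM in arterial ECs. Muscle held 26.8 to 40.6 CPM of it, which helped it past the filter on low counts. Its call of ECs below outside cells (−1.20 ± 0.39) is therefore no independent test. That call was lost without jag1b g3UTR (−0.05), with a stricter gate (−0.13) and with no filter on low counts (−0.94). wnt16 stood between 1.27 and 5.50 CPM in the 4 EC classes and 0.853 to 1.98 CPM in nHSPCs, and its highest level was in notochord cells, with 77.0, 105, 60.7 and 126 CPM. Its call in nHSPCs (−1.01 ± 0.39, adjusted p = 0.023) was lost without the miR-128 mutant (−0.90) and without WT (−0.96). It was also lost with a lower UMI limit (−0.92) and when cells were gated after thinning (−0.87).

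The other 17 ligands were close to absent from the endothelium, with at most 1.22 CPM (wnt4b in jag1b g3UTR) in ECs of any library. Several were strong in a neighbouring class of the trunk. wnt11r had 193, 125, 145 and 220 CPM in neural cells and 37.0 to 63.1 in trunk mesenchyme. wnt10a had 83.3, 145, 110 and 74.6 CPM in epidermis, and wnt4a 83.4, 96.9, 76.9 and 81.3 CPM in neural cells. These 3 are counted above as lower in ECs than in outside cells. They passed the filter on low counts through the outside classes that hold them, so this outcome was fixed in advance. The log2 differences were −5.94 ± 0.67 for wnt11r, −5.97 ± 0.78 for wnt10a and −4.04 ± 1.23 for wnt4a. The call of wnt4a was lost without csnk1a1 g3UTR (−1.82) and with a lower UMI limit (−2.96). Of the rest, wnt1, wnt3, wnt7bb and wnt10b had their highest mean in neural cells, wnt3a, wnt5a, wnt6b, wnt7ab and wnt9b in epidermis, and wnt2 in trunk mesenchyme, while wnt7aa had like levels in neural cells (6.95 to 28.9 CPM) and epidermis (7.40 to 29.8 CPM). Their highest level in any class of any library was 41.2 CPM, for wnt9b in epidermis of csnk1a1 g3UTR. wnt6a had no UMI in any outside class and 0.415 to 0.790 CPM in nHSPCs, from 2 or 3 UMIs a library, and wnt7ba reached at most 1.26 CPM.

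wnt4b in the notochord stood apart in WT. It had 130 UMIs in miR-128 mutant cells, 117 in csnk1a1 g3UTR, 120 in jag1b g3UTR and 5 in WT, or 233, 286, 347 and 11.2 CPM, in 39 to 51 notochord cells a library. wnt4a had 64, 20, 11 and 0 UMIs in the same cells. wnt16 had 43, 43, 21 and 56 and the antagonist wif1 27, 12, 11 and 48, both with most UMIs in WT. The neural markers summed to between 56.1 and 958.1 CPM in notochord cells, depending on the library. These few cells may thus differ in makeup between libraries, and the part of this in the wnt4b levels was not tested. Neural cells had 25.8, 145, 15.4 and 30.5 CPM of wnt4b, a ratio of csnk1a1 g3UTR to WT of 4.74 (3.37 to 6.74).

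wls, which carries Wnt proteins to the cell surface, was among the strongest members of the vessel, with 53.9 to 68.8 CPM in tip and venous ECs. Haemogenic ECs had 21.4, 22.3, 36.4 and 27.4 CPM, against 54.3, 49.3, 50.3 and 55.4 in arterial ECs, lower in every library (log2 difference −1.18 ± 0.20, edgeR adjusted p = 6.1e-06). In nHSPCs it was down to 1.45, 0.223, 1.98 and 0.853 CPM (−5.50 ± 0.33, adjusted p = 6.6e-20). Trunk mesenchyme, with 158 to 189 CPM, had the most.

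**Figure D2:**
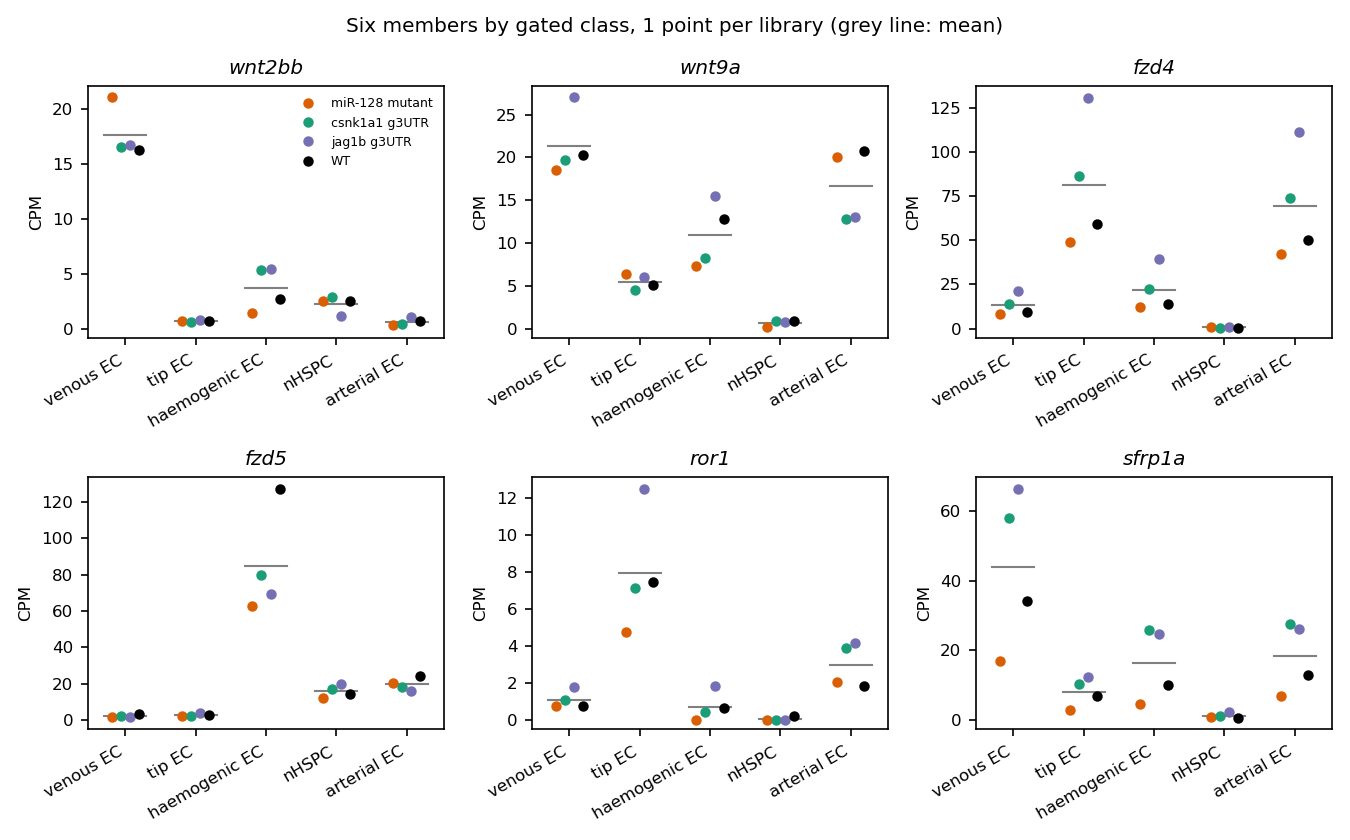
CPM of wnt2bb, wnt9a, fzd4, fzd5, ror1 and sfrp1a in venous, tip and haemogenic EC, nHSPC and arterial EC, 1 point for each library (miR-128 mutant, csnk1a1 g3UTR, jag1b g3UTR, WT) and a grey line for the mean of the 4. fzd5 in haemogenic EC (62.9 to 127 CPM) lies above every other class, and wnt2bb is high in venous EC alone among the 5 classes shown.

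Among the Frizzled receptors, fzd5 was the one called higher in haemogenic than in arterial ECs. Its level in haemogenic ECs was 62.9 CPM in miR-128 mutant cells, 80.0 in csnk1a1 g3UTR, 69.2 in jag1b g3UTR and 127 in WT, against 20.3, 18.2, 16.1 and 24.3 CPM in arterial ECs. The lowest haemogenic value lay above the highest arterial value, and the log2 difference was 1.92 ± 0.15 (edgeR adjusted p = 8.1e-14). Tip ECs had 2.15 to 3.74 CPM and venous ECs 1.77 to 3.36, both called lower than arterial ECs, by −2.95 ± 0.20 (adjusted p = 1.3e-14) in tip and −3.03 ± 0.16 (adjusted p = 5.8e-20) in venous ECs. In nHSPCs it had 12.02, 17.0, 19.8 and 14.5 CPM and in myeloid cells 4.84 to 6.25. After every cell was thinned to 4500 UMIs, an fzd5 UMI was found in 27.0%, 30.6%, 24.7% and 39.6% of haemogenic ECs and in 8.62%, 6.94%, 5.44% and 10.3% of arterial ECs. Thinning left out 3 to 11 haemogenic and 144 to 590 arterial ECs a library that were shallower. As a gauge of free RNA, the share in venous ECs was 0.621% to 1.33%. Without thinning the haemogenic shares were 45.5%, 51.3%, 35.2% and 61.1% at median depths of 9449 to 12510 UMIs, against 14.2%, 9.53%, 6.73% and 16.8% of arterial ECs at 5381 to 9513 UMIs. Trunk mesenchyme had no fzd5 UMI in any library.

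fzd4, a receptor of Wnt ligands and of Norrin, was high in artery and tip. Venous ECs had 8.17, 14.0, 21.1 and 9.30 CPM and tip ECs 49.3, 86.2, 131 and 59.3, against 42.4, 73.9, 111 and 50.3 in arterial ECs. Venous ECs were lower by −2.32 ± 0.11 (edgeR adjusted p = 6.7e-22), and tip ECs were not told apart from arterial ECs (0.19 ± 0.11, adjusted p = 0.30). In haemogenic ECs the level was 12.4, 22.7, 39.2 and 13.7 CPM (−1.89 ± 0.14, adjusted p = 2.0e-15), and in nHSPCs 0.426 to 1.19 CPM (−6.28 ± 0.22, adjusted p = 8.3e-28). Its level in every EC class had the same order of libraries, with jag1b g3UTR first and the miR-128 mutant last. fzd4 was also higher in ECs than in outside cells, by 2.57 ± 0.12 (adjusted p = 3.0e-23).

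fzd7a, fzd2, fzd6 and fzd7b made up the broad receptor set. Venous ECs had 77.4, 59.2, 60.9 and 61.1 CPM of fzd7a and arterial ECs 49.8, 71.2, 71.2 and 48.3, so the ranges overlapped. Haemogenic ECs had 26.2, 34.2, 40.1 and 27.0 CPM of fzd7a (−1.10 ± 0.16 against arterial ECs, edgeR adjusted p = 3.0e-07). fzd2 had 52.0, 50.9, 65.2 and 51.9 CPM in venous ECs and 29.6, 41.7, 48.2 and 31.9 in arterial ECs. In haemogenic ECs fzd2 was lower, at 12.7, 16.1, 23.7 and 12.8 CPM (−1.46 ± 0.18, adjusted p = 3.8e-09). fzd7b had 12.9 to 17.5 CPM in venous, tip and arterial ECs and 3.38, 9.08, 5.47 and 6.41 in haemogenic ECs (−1.60 ± 0.22, adjusted p = 6.2e-08). fzd6, a receptor of the polarity branch, was the exception, with 33.3, 24.8, 20.9 and 29.6 CPM in haemogenic ECs and 36.4, 24.4, 24.3 and 27.1 in arterial ECs, a difference that was not called (−0.17 ± 0.12, adjusted p = 0.26). Among the nHSPCs fzd6 had 18.9, 13.8, 17.8 and 16.2 CPM, the highest level of any member in the miR-128 mutant and WT, and fzd5 was the highest in the other 2 libraries.

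The remaining Frizzled genes were weaker. fzd10 was venous, with 5.39, 3.79, 7.65 and 4.03 CPM against 0.458, 1.73, 1.62 and 0.760 in arterial ECs (2.34 ± 0.27, edgeR adjusted p = 7.9e-10), though neural cells (15.4 to 32.7 CPM) and epidermis (23.4 to 27.1 CPM) had more. fzd3a was lower in the vein, with 2.13, 2.53, 5.16 and 2.74 CPM in venous and 7.66, 6.45, 8.11 and 6.26 in arterial ECs (−1.18 ± 0.19, adjusted p = 2.3e-06), and neural cells had 28.7 to 101 CPM. fzd8a (0.414 to 0.765 CPM in venous and 0.984 to 2.33 in arterial ECs) and fzd8b (0.810 to 1.20 and 3.09 to 4.32 CPM) were also lower in the vein, by −1.10 ± 0.29 (adjusted p = 0.0016) and −1.74 ± 0.34 (adjusted p = 3.6e-05). The fzd8a call was lost without jag1b g3UTR (−0.96) and when cells were gated after thinning (−0.91). fzd8b had 2.77 to 7.67 CPM in nHSPCs. fzd1 had 1.98 to 7.01 CPM over the EC classes and fzd3b at most 1.74 CPM. fzd9b, which in zebrafish is known as a receptor for wnt9a in blood stem cell precursors, had 2.93 ± 1.07 on the log2 scale in nHSPCs over arterial ECs (adjusted p = 0.016). That call rested on 0 to 0.670 CPM in nHSPCs and 0 to 0.0909 CPM in arterial ECs, whereas neural cells had 7.94 to 18.2 CPM, and it was lost without csnk1a1 g3UTR (2.49), without jag1b g3UTR (2.59), with a stricter gate (2.09) and when cells were gated after thinning (1.62).

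Frizzled genes were also counted per cell. After thinning to 4500 UMIs, a UMI of at least 1 Frizzled gene was found in 18.6% of nHSPCs in the miR-128 mutant library and in 17.7%, 19.6% and 18.8% in csnk1a1 g3UTR, jag1b g3UTR and WT. Haemogenic ECs had shares of 52.5%, 61.1%, 60.8% and 62.0%, and arterial ECs 60.1%, 65.5%, 70.7% and 59.9%. In myeloid cells the share was 10.9%, 6.02%, 6.36% and 8.37%. The part of free RNA in this share was not tested, and fzd5 had a higher level in myeloid cells than in venous ECs. At least 2 Frizzled genes were found in 0.980%, 0.260%, 3.33% and 1.05% of nHSPCs and in 21.5%, 23.6%, 29.4% and 20.6% of arterial ECs.

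Of the coreceptors, ror1, which binds Wnt5-type ligands, was higher in tip than in arterial ECs. Its tip level was 4.76, 7.11, 12.5 and 7.43 CPM, against 2.03, 3.91, 4.15 and 1.83 in arterial ECs, higher in each library (1.40 ± 0.25, edgeR adjusted p = 6.6e-05). It was lower than in arterial ECs in venous (−1.34 ± 0.26, adjusted p = 3.6e-05) and haemogenic ECs (−2.44 ± 0.57, adjusted p = 0.00061), with 0.751 to 1.80 and 0 to 1.82 CPM. ror2 had 1.41, 1.65, 2.73 and 1.77 CPM in haemogenic and 2.68, 5.82, 6.59 and 3.35 in arterial ECs (−1.40 ± 0.33, adjusted p = 0.00058, or −0.73 and uncalled when cells were gated after thinning), and its highest level was in the notochord, at 24.4 to 43.3 CPM. lrp5 LL0000018341 had 12.5, 20.1, 29.0 and 12.3 CPM in arterial ECs, and its other EC classes ranged from 9.95 to 32.6 CPM. lrp5 LL0000040052 had 14.3, 15.9, 25.4 and 15.9 CPM in arterial ECs. Neither lrp5 row was called between EC classes, and in nHSPCs they were lower by −1.52 ± 0.18 (adjusted p = 4.7e-10) and −2.19 ± 0.21 (adjusted p = 4.0e-13). lrp5 LL0000040053 had at most 0.911 CPM in an EC class.

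Of the dishevelled genes, dvl1a was the one called between EC classes. It had 13.7, 21.6, 28.6 and 15.2 CPM in venous ECs, against 5.70, 9.64, 12.6 and 6.93 in arterial ECs (1.27 ± 0.14, edgeR adjusted p = 1.5e-10). It was above outside cells by 2.30 ± 0.23 (adjusted p = 2.9e-12), although muscle had 6.48 to 21.5 CPM. dvl2 had 35.9 to 42.4 CPM in tip and 28.4, 29.1, 36.4 and 32.0 in arterial ECs, and dvl3a 20.4, 22.5, 29.5 and 22.8 in arterial ECs. dvl3b had 0.853 to 7.11 CPM in nHSPCs and 2.37 to 9.02 in arterial ECs, and dvl1b had 0.846 to 4.49 CPM over the EC classes. In nHSPCs dvl2 was lower than in arterial ECs by −2.91 ± 0.20 (adjusted p = 1.3e-17), dvl3a by −2.25 ± 0.16 (adjusted p = 6.8e-17) and dvl1a by −1.13 ± 0.22 (adjusted p = 1.2e-05).

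sfrp1a, a secreted protein that binds Wnt ligands, was an antagonist of the vein. Venous ECs had 16.9 CPM in miR-128 mutant cells, 58.0 in csnk1a1 g3UTR, 66.4 in jag1b g3UTR and 34.2 in WT, against 6.94, 27.5, 26.1 and 12.8 in arterial ECs. Within each library the vein was higher, and the log2 difference was 1.35 ± 0.17 (edgeR adjusted p = 4.4e-09). Tip ECs had 2.94, 10.5, 12.5 and 6.84 CPM, lower than arterial ECs by −1.17 ± 0.21 (adjusted p = 3.8e-05), a call that was lost with a stricter gate (−0.97) and with no library block (−1.235, adjusted p = 0.095). nHSPCs had 0.639 to 2.37 CPM, and trunk mesenchyme the most, 47.0 to 113.

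dkk3b, a Dickkopf protein of a divergent branch of the family, was not called between vein and artery (−0.01 ± 0.15, edgeR adjusted p = 0.97). It had 25.2, 15.5, 10.1 and 9.75 CPM in venous and 27.4, 16.6, 10.1 and 10.7 in arterial ECs. The ECs in no named class had more, 47.6, 26.1, 14.6 and 20.04 CPM. It was higher in ECs than in outside cells by 1.55 ± 0.18 (adjusted p = 4.4e-10). dkk2 was found mostly in the vein, with 5.65, 4.57, 2.40 and 3.25 CPM in venous and 0.131, 0.0909, 0.405 and 0.268 in arterial ECs. It did not pass the filter on low counts, and with no filter it was called at a log2 difference of 4.15. sfrp2 had 6.77, 5.36, 6.38 and 7.07 CPM in haemogenic and 1.38, 2.27, 4.26 and 1.97 in arterial ECs (1.39 ± 0.33, adjusted p = 0.00071). This call was lost when cells were gated after thinning (1.12), and muscle had 222 to 291 CPM of sfrp2.

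The other 8 antagonists had higher levels in outside classes. sfrp5 had 55.3, 69.3, 28.8 and 43.1 CPM in trunk mesenchyme and 0 to 0.911 in the EC classes. Its log2 difference between ECs and outside cells was −5.11 ± 0.98. This call was lost without csnk1a1 g3UTR (−4.12) and with a lower UMI limit (−4.245). wif1 had 48.3, 29.3, 31.8 and 108 CPM in the notochord, 16.2 to 35.2 in trunk mesenchyme and 0.760 to 2 in the EC classes (−2.60 ± 0.48). Both sfrp5 and wif1 passed the filter on low counts through outside classes, so their lower level in ECs was fixed in advance. frzb had 0 to 2.74 CPM in the EC classes. dkk1a, which blocks Lrp5 and Lrp6, had 8.53 to 14.6 CPM in trunk mesenchyme and 3.70 to 15.9 in epidermis, and 3 UMIs in ECs of the 4 libraries together. dkk1b, dkk3a, sfrp1b and sfrp2l had at most 0.881 CPM in ECs and reached 24.3, 5.59, 14.4 and 8.85 CPM in their strongest class.

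R-spondins were near the limit of detection in the endothelium. rspo3 had 0.830, 0.162, 0.1996 and 0.444 CPM in venous ECs and 0.131, 0, 0 and 0.313 in arterial ECs, the venous level being called higher (1.58 ± 0.64, edgeR adjusted p = 0.042). The call held without WT (2.53) and with no filter on low counts, and it was lost without the miR-128 mutant (0.96), csnk1a1 g3UTR (1.498) or jag1b g3UTR (1.536), and with DESeq2, other size factors, no library block, a lower UMI limit or gating after thinning. Notochord cells had 5.37 to 37.6 CPM of it. rspo2 was epidermal, at 14.8, 45.7, 55.1 and 71.8 CPM, with at most 0.304 CPM in an EC class, and rspo1 did not pass 2.89 CPM in any class.

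Against outside cell types, the 9 members called higher in ECs were wnt2bb, wnt9a, fzd4, fzd5, fzd6, fzd8b, dvl1a, dvl3b and dkk3b. As wnt2bb passed the filter on low counts mainly through venous ECs, its call was fixed in advance. fzd6 was higher by 1.39 ± 0.09 (edgeR adjusted p = 5.9e-18), with 20.9 to 38.8 CPM in the EC classes and 3.58 to 17.1 in outside classes. fzd5 had at most 15.7 CPM in an outside class, in the notochord. fzd8b lost its call without the miR-128 mutant (1.70) or csnk1a1 g3UTR (1.90), and with DESeq2 (0.96), other size factors or a lower UMI limit. dvl3b was higher by 1.17 ± 0.22 (adjusted p = 1.4e-05), or 0.95 and uncalled with DESeq2 and with other size factors. It was also uncalled when cells were gated after thinning (0.85). Besides the ligands and antagonists given above, sfrp2 (−3.28 ± 0.68, adjusted p = 5.2e-05), ror2 (−1.10 ± 0.47, adjusted p = 0.043), fzd10 (−2.62 ± 0.59) and fzd8a (−2.13 ± 0.39) were lower in ECs. fzd10 and fzd8a passed the filter on low counts largely through classes outside the endothelium, so their lower level in ECs was fixed in advance. ror2 lost its call without the miR-128 mutant (−1.10), WT (−1.14) or csnk1a1 g3UTR (−0.15). It was also lost with no filter on low counts (−0.84) and when cells were gated after thinning (−0.87).

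The 22 members that were lower in nHSPCs than in arterial ECs took in ligands (wnt5b, wnt9a, wnt11f2 and wnt16), wls, 8 Frizzled receptors, both Ror and 2 lrp5 rows, 3 dishevelled genes and the antagonists sfrp1a and wif1. The wif1 call was lost without the miR-128 mutant (−1.37) or jag1b g3UTR (−1.53). It was also lost with a stricter gate, a lower UMI limit or gating after thinning. fzd5 (−0.22 ± 0.17, adjusted p = 0.26), fzd6 (−0.63 ± 0.12, adjusted p = 1.0e-05) and dkk3b (−0.997 ± 0.19, adjusted p = 1.4e-05) were not called, the last 2 by the limit on fold alone. In erythroid and myeloid cells the 28 that were lower ranged from fzd4 (−6.59 ± 0.20, edgeR adjusted p = 3.7e-31) to dvl3b (−1.38 ± 0.23, adjusted p = 8.4e-07). Among them, fzd10 lost its call without WT (−1.47) or csnk1a1 g3UTR (−1.24), and with a stricter gate, a lower UMI limit or gating after thinning. The member that was higher in erythroid and myeloid cells was wnt2bb (1.30 ± 0.51, adjusted p = 0.022), at 0 to 2.69 CPM. It lost its call without the miR-128 mutant (0.96) or jag1b g3UTR (0.98), and with a stricter gate (1.20).

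Between libraries no test was possible, since each group was 1 library. ECs were therefore compared by the ratio of their CPM with an exact conditional binomial 95% interval, which covers counting error only, and a gene was counted when it passed 1.5-fold with at least 50 UMIs over the pair. In the miR-128 mutant against WT, 6 of 38 members were higher, where 6.66% of all genes were, and 4 were lower, where 6.69% were. In csnk1a1 g3UTR against WT, 6 of 36 were higher against a background of 15.4% and 1 was lower against 4.88%. In jag1b g3UTR against WT, 20 of 38 were higher against 33.4% and 2 were lower against 6.97%. Between the g3UTR libraries, which share a software version, 2 of 35 members were higher in csnk1a1 g3UTR than in jag1b g3UTR against 4.6%, and 10 were lower against 15.9%. The comparisons with WT share the WT library.

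The counts for the g3UTR libraries moved with the scale. The median log2 ratio over all genes was −0.003 in miR-128 mutant cells, 0.15 in csnk1a1 g3UTR and 0.29 in jag1b g3UTR, against WT, and −0.14 in csnk1a1 g3UTR against jag1b g3UTR, and the members' medians were −0.02, 0.13, 0.60 and −0.38. Scaled by median-of-ratios size factors, all genes were split 1483 higher to 1538 lower in csnk1a1 g3UTR in place of 2580 to 818, 2640 to 4025 in jag1b g3UTR in place of 5672 to 1183, and 1659 to 1370 between the g3UTR libraries in place of 744 to 2574. The members were then split 3 to 2, 9 to 6 and 4 to 5, and those of the miR-128 mutant stayed at 6 to 4. The share of ribosomal protein UMIs in ECs was 31.6% in miR-128 mutant cells, 32.3% in csnk1a1 g3UTR, 28.4% in jag1b g3UTR and 31.2% in WT, and the median EC depth 9414, 7578, 5929 and 10540 UMIs. The part of these in the members' ratios was not tested.

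**Figure D3:**
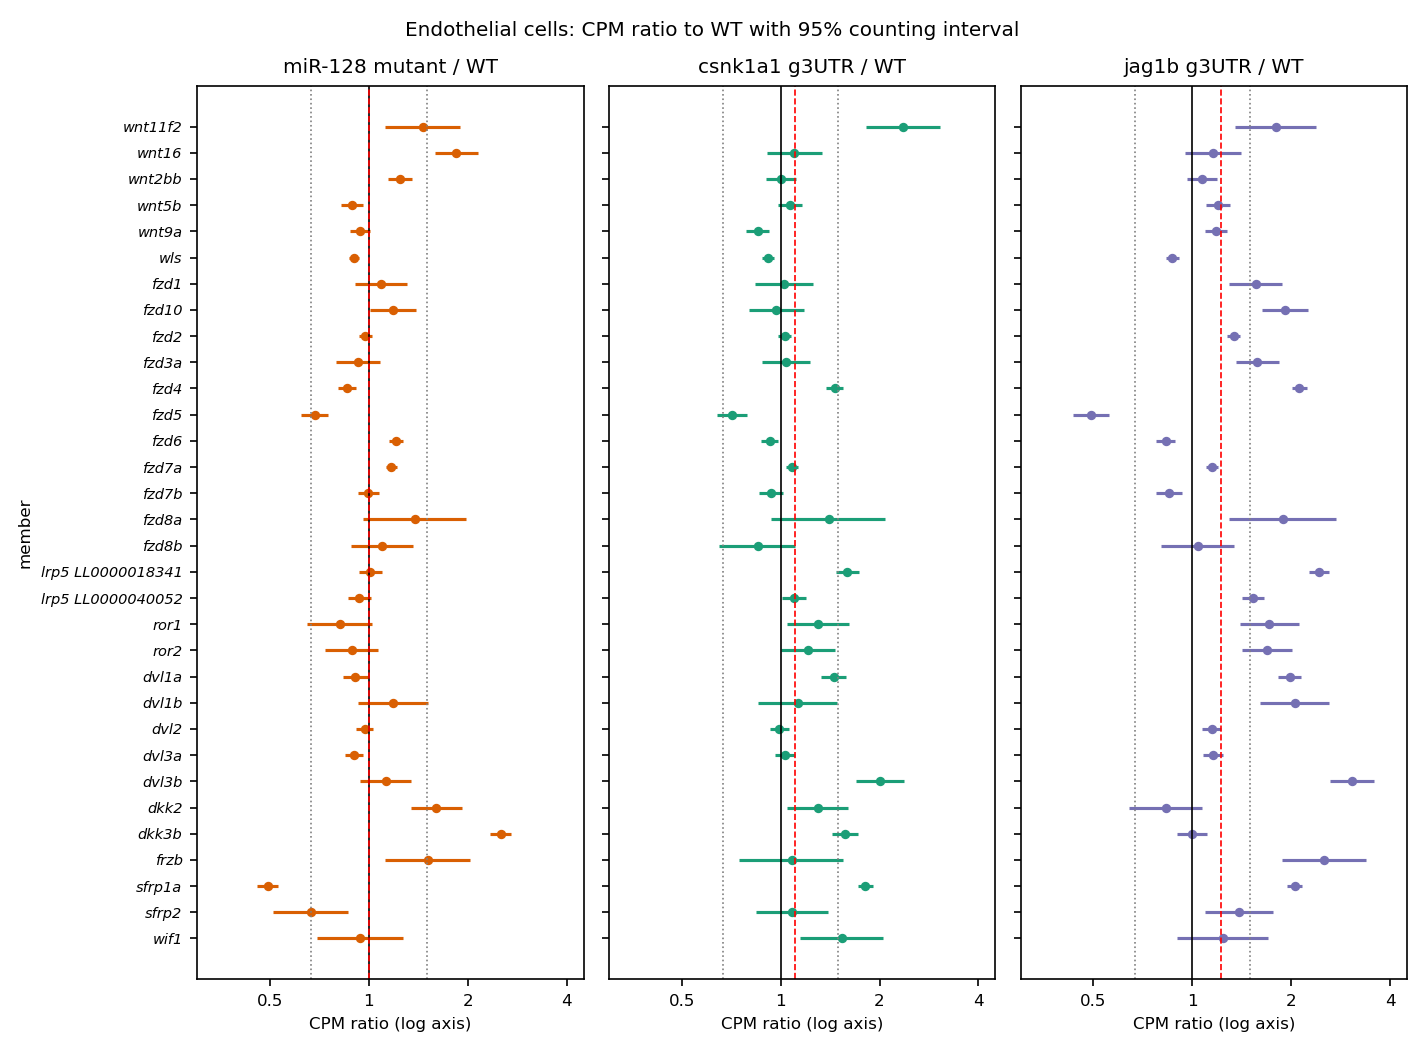
Ratio of CPM in endothelial cells to WT (log axis), from the left for the miR-128 mutant library, then csnk1a1 g3UTR, then jag1b g3UTR, for members with at least 100 UMIs over the pair, with exact 95% counting intervals. The solid line is equality, the dotted lines are 1.5-fold and the red dashed line is the median ratio of all genes, which lies right of equality for both g3UTR libraries. dkk3b (2.52) and sfrp1a (0.492) lie farthest out among the well-counted members of the miR-128 mutant.

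In the miR-128 mutant, dkk3b and sfrp1a stood on opposite sides of WT. Both were put among the antagonists by symbol alone, and their action on Wnt signalling was not tested. dkk3b had 26.0 CPM in ECs of the miR-128 mutant and 10.3 in WT, a ratio of 2.52 (2.34 to 2.71). The ratio was 2.57 (2.18 to 3.02) in arterial, 2.28 (1.72 to 3.04) in tip, 2.59 (2.35 to 2.86) in venous and 2.71 (1.76 to 4.23) in haemogenic ECs, and dkk3b was higher in 8 of 8 classes with at least 10 UMIs. In nHSPCs it stood at 15.5 CPM in the miR-128 mutant and 1.71 in WT, a ratio of 9.12 (4.40 to 21.9) from 75 and 8 UMIs. csnk1a1 g3UTR lay between, at 16.2 CPM and a ratio to WT of 1.57 (1.44 to 1.72), whereas jag1b g3UTR had 10.3 CPM, and with median-of-ratios scaling the ratios of these libraries to WT were 1.37 and 0.749, within the limit. Myeloid cells had 3.75 CPM in the miR-128 mutant and 0.359 in WT, and erythroid cells 4.91 and 0.845 CPM. Both WT values rest on under 3 UMIs, which stand for 0.538 CPM in myeloid and 2.54 CPM in erythroid cells of WT.

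sfrp1a had 12.3 CPM in ECs of the miR-128 mutant and 25.01 in WT, a ratio of 0.492 (0.457 to 0.530). Within classes the ratio was 0.54 (0.43 to 0.68) in arterial, 0.43 (0.27 to 0.68) in tip, 0.49 (0.45 to 0.54) in venous and 0.45 (0.24 to 0.82) in haemogenic ECs. Outside the endothelium it was 0.42 (0.23 to 0.74) in neural cells and 0.79 (0.59 to 1.05) in trunk mesenchyme, and sfrp1a was lower in 6 of 8 classes with at least 10 UMIs. In both g3UTR libraries sfrp1a was instead higher than in WT, at 45.2 CPM in csnk1a1 g3UTR (ratio 1.81, 1.71 to 1.91) and 51.2 CPM in jag1b g3UTR (2.05, 1.94 to 2.16). With median-of-ratios scaling these were 1.57 and 1.54, still past the limit.

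**Figure D4:**
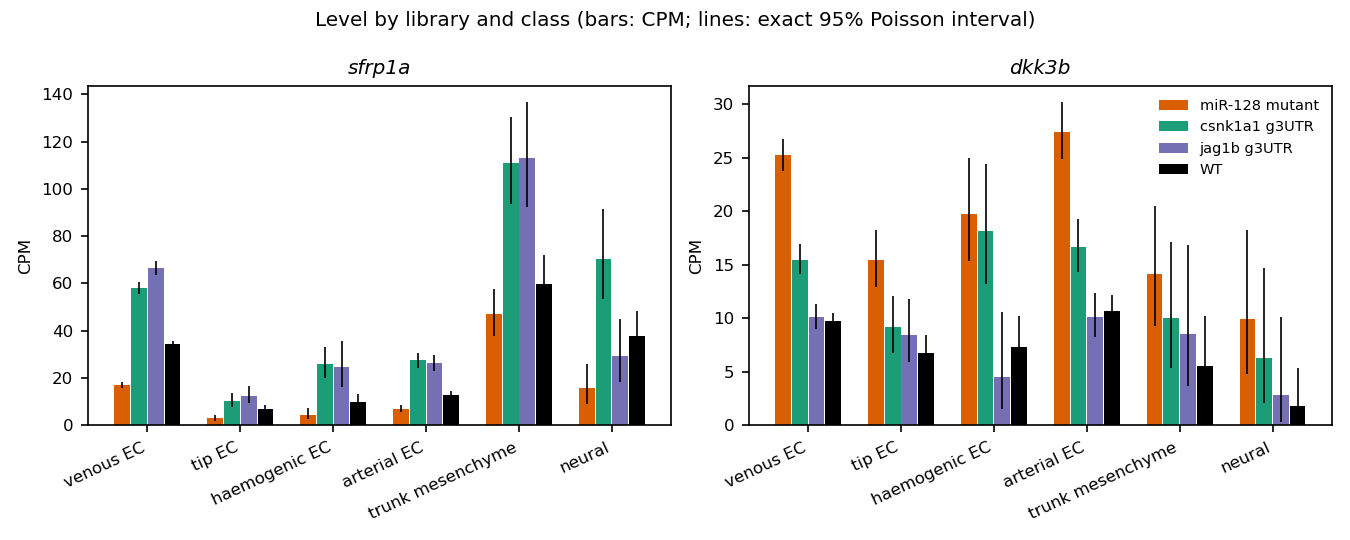
CPM of sfrp1a and dkk3b in 6 cell classes of the miR-128 mutant, csnk1a1 g3UTR, jag1b g3UTR and WT (bars from 0), with exact 95% Poisson intervals of the UMI counts (lines). In each EC class the miR-128 mutant bar is the lowest of the 4 for sfrp1a and the highest for dkk3b.

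Other members passed 1.5-fold in the miR-128 mutant at lower levels. wnt16 had 5.08 CPM in the miR-128 mutant and 2.75 in WT, a ratio of 1.84 (1.59 to 2.15), with 2.05 (1.45 to 2.90) in arterial and 1.79 (1.47 to 2.18) in venous ECs. The venous dkk2 had 3.32 and 2.07 CPM, a ratio of 1.60 (1.34 to 1.92), and frzb 1.21 and 0.805 CPM, a ratio of 1.51 (1.12 to 2.03). sfrp2 was lower, with 1.11 and 1.67 CPM and a ratio of 0.665 (0.510 to 0.861). rspo3 (1.77) and wnt11r (1.95) were higher and fzd3b (0.301) and sfrp2l (0.504) lower on fewer than 100 UMIs a pair. Within arterial ECs alone, 3 of 26 members tested passed the limit, where 10.3% of all genes did. Receptors of the broad endothelial set and wls lay within 1.5-fold of WT, where fzd7a had a ratio of 1.17 (1.13 to 1.22), fzd6 1.21 (1.15 to 1.27), fzd2 0.975 (0.933 to 1.02), wls 0.901 (0.867 to 0.935) and fzd4 0.857 (0.805 to 0.912).

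fzd5 was lower in each mutant or injected library than in WT, with 8.72 CPM in miR-128 mutant cells, 9.08 in csnk1a1 g3UTR, 6.28 in jag1b g3UTR and 12.8 in WT over all ECs. As ratios to WT these were 0.684 (0.623 to 0.749), 0.712 (0.642 to 0.789) and 0.493 (0.435 to 0.557), of which the last passed the limit. In haemogenic ECs the ratios were 0.49 (0.42 to 0.58), 0.63 (0.53 to 0.74) and 0.54 (0.42 to 0.69), and in arterial ECs 0.84 (0.72 to 0.96), 0.75 (0.63 to 0.88) and 0.66 (0.55 to 0.79). Haemogenic ECs, the class richest in fzd5, made up 3.40%, 2.87% and 1.38% of ECs in these libraries and 3.18% in WT. These shares come from cells gated at unlike depth, with jag1b g3UTR the shallowest library per cell and WT the deepest. Gated after thinning, haemogenic ECs were 70 of 6970, 53 of 5611 and 41 of 5723 ECs, and 98 of 9152 in WT. The size of the shortfall in jag1b g3UTR thus depends on the depth at which cells were gated. In nHSPCs the intervals included 1 in all 3, at 0.83 (0.57 to 1.20), 1.17 (0.83 to 1.65) and 1.36 (0.93 to 1.99).

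In csnk1a1 g3UTR against WT, wnt11f2 (2.42 and 1.03 CPM, ratio 2.35, 1.82 to 3.04) and dvl3b (5.10 and 2.55 CPM, ratio 2.002, 1.69 to 2.37) were the highest ratios, followed by sfrp1a, lrp5 LL0000018341 (20.1 and 12.6 CPM, ratio 1.60, 1.47 to 1.73), dkk3b and wif1 (1.56 and 1.02 CPM, ratio 1.53, 1.15 to 2.05). The member that was lower was fzd3b (0.627, on 94 UMIs). With median-of-ratios scaling wnt11f2, dvl3b and sfrp1a stayed past the limit, lrp5 LL0000018341, dkk3b and wif1 did not, fzd3b stayed below it and fzd5 joined it at 0.620.

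In jag1b g3UTR against WT, the 20 members that were higher were 3 ligands, 10 receptors and coreceptors, 3 dishevelled genes and 4 antagonists, sfrp1a among them. fzd4 had 50.6 and 23.9 CPM, a ratio of 2.12 (2.005 to 2.24), and the ratio was 2.21 in arterial, 2.21 in tip, 2.26 in venous and 2.86 in haemogenic ECs. lrp5 LL0000018341 had 30.6 and 12.6 CPM (2.43, 2.26 to 2.61), dvl3b 7.79 and 2.55 (3.05, 2.62 to 3.57), dvl1a 22.9 and 11.6 (1.98, 1.83 to 2.15), dvl1b 2.70 and 1.32 (2.05, 1.61 to 2.60) and frzb 2.02 and 0.805 (2.51, 1.87 to 3.37). fzd1, fzd3a, fzd8a, fzd10, ror1, ror2, wnt11f2 and lrp5 LL0000040052 lay between 1.53 and 1.91, and fzd3b at 1.51. dkk3a (1.80), sfrp2l (2.31), wnt11r (2.75) and wnt4b (3.54) passed on 51 to 100 UMIs a pair, and rspo3 (0.411) was lower on 52. With median-of-ratios scaling, sfrp1a, dvl1b, fzd4, sfrp2l, lrp5 LL0000018341, frzb, wnt11r, dvl3b and wnt4b stayed higher, and wls (0.652), fzd7b (0.638), fzd6 (0.622) and dkk2 (0.624) joined fzd5 (0.370) and rspo3 (0.309) as lower. The other 11 that were higher on total UMIs, dvl1a, fzd1, fzd3a, fzd3b, fzd8a, fzd10, ror1, ror2, wnt11f2, dkk3a and lrp5 LL0000040052, fell within the limit at 1.13 to 1.49. The calls of these 11 and of the 4 that joined rest on the scale.

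Against jag1b g3UTR, csnk1a1 g3UTR had more dkk3b (16.2 and 10.3 CPM, ratio 1.58, 1.41 to 1.76) and dkk2 (2.69 and 1.72 CPM, ratio 1.56, 1.19 to 2.06). dkk3b was higher in 9 of 9 classes with at least 10 UMIs. The 10 members that were lower in csnk1a1 g3UTR had ratios of 0.327 (wnt4b) to 0.659 (fzd1), among them fzd10 (2.91 and 5.72 CPM, 0.508), frzb (0.872 and 2.02 CPM, 0.431), dvl1b (0.551), dvl3b (0.656), fzd3a (0.658) and lrp5 LL0000018341 (0.657), with wnt4b, fzd3b and sfrp2l on under 100 UMIs. Of these, wnt4b, fzd3b, frzb, fzd10 and dvl1b stayed lower with median-of-ratios scaling and the other 5 did not, while fzd5 (1.67) and wnt11f2 (1.52) joined dkk3b and dkk2 as higher.

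wnt9a and fzd7a had arterial and venous ratios of unlike size. In arterial ECs the ratio of wnt9a to WT was 0.62 (0.51 to 0.75) for csnk1a1 g3UTR, with 0.63 (0.51 to 0.77) for the other injected library, jag1b g3UTR, whereas in venous ECs the ratios were 0.97 (0.88 to 1.07) and 1.33 (1.22 to 1.45). fzd7a went the other way, at 1.47 (1.34 to 1.62) in arterial ECs of either g3UTR library and 0.97 (0.92 to 1.02) and 0.997 (0.94 to 1.05) in venous ECs. With median-of-ratios scaling the ratios over all ECs were 0.740 and 0.885 for wnt9a and 0.942 and 0.860 for fzd7a, in place of 0.850 and 1.18 for wnt9a and 1.08 and 1.15 for fzd7a, so the direction over all ECs turned with the scale for wnt9a in jag1b g3UTR and for fzd7a in both. In the miR-128 mutant, wnt9a had 0.97 (0.83 to 1.12) and 0.91 (0.84 to 0.998), and fzd7a 1.03 (0.94 to 1.13) and 1.27 (1.21 to 1.33), in the same order of classes. With 1 library per group, the difference between classes was not tested.

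Other genes of the pathway were counted from 5 lists. Venous against arterial ECs, the Tcf and Lef factors, which carry the signal in the nucleus, had lef1 (1.25 ± 0.16, edgeR adjusted p = 3.3e-09) and tcf7 (1.84 ± 0.22, adjusted p = 1.2e-09) higher and tcf7l2 lower (−1.84 ± 0.14, adjusted p = 2.0e-15), or 3 of 7 tested, and none of 14 core genes such as axin1 and apc and none of 5 targets was called. Over all genes 9.16% were higher and 7.91% lower in the vein. Of 9 genes of secretion and receptor turnover 1 was higher and 1 lower, and of 13 of planar polarity 2 were lower. kremen1, a receptor for Dkk proteins, was lower in the vein (−3.49 ± 0.22, adjusted p = 2.3e-18) and higher in tip ECs (1.05 ± 0.18, adjusted p = 2.4e-05), and of the 14 core genes axin2, a feedback target of β-catenin signalling, was higher in tip ECs (1.04 ± 0.20, adjusted p = 0.00012). Of the 5 targets tested none was higher in tip ECs and 1, cdx4, was lower (−1.69 ± 0.31, adjusted p = 7.9e-05), with a median log2 difference of −0.63, and 1 of 13 planar polarity genes was lower, where 1.24% of all genes were higher and 3.69% lower. In haemogenic against arterial ECs, no gene of the 5 lists was called higher, and 2 of 14 core genes, 1 of 7 Tcf and Lef factors, 2 of 9 genes of secretion and receptor turnover, 4 of 13 of planar polarity and 1 of 5 targets were lower, against 7.36% of all genes. In nHSPCs, tcf7 (2.15 ± 0.28, adjusted p = 3.9e-09) and the target ccnd1 (1.53 ± 0.17, adjusted p = 8.6e-11) were higher, and the other 4 of 5 targets, myca, cdx4, tbxta and nkd1, were lower (−3.85 to −1.75), with a median of −2.72 for the list. Also lower were 4 of 14 core genes, 3 of 7 Tcf and Lef factors, 5 of 9 genes of secretion and receptor turnover and 10 of 13 of planar polarity, where 19.3% of all genes were higher and 22.8% lower. Of the targets, tbxta is also a marker of the notochord gate. All 6 notochord markers together had 5.23 to 13.98 CPM in arterial ECs and 1.04 to 4.35 in nHSPCs, so tbxta was low in both classes.

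In the miR-128 mutant against WT, none of 13 core genes, 7 Tcf and Lef factors, 7 genes of secretion and receptor turnover and 13 of planar polarity passed 1.5-fold, and of 8 targets 1 did, cdx4, with 7.11 and 3.96 CPM (ratio 1.80). Of all genes, 6.66% were higher and 6.69% lower. axin2 had 3.02 and 2.66 CPM (1.14, 0.954 to 1.35) and lef1 5.91 and 6.32 CPM (0.935, 0.830 to 1.05). In csnk1a1 g3UTR against WT, 2 of 13 core genes, 2 of 7 Tcf and Lef factors, 1 of 6, 3 of 13 and 1 of 8 in the same order of lists were higher and none lower, where 15.4% of all genes were higher. By median-of-ratios scaling 0, 0, 0, 2 and 1 were higher, against 8.84%. In jag1b g3UTR against WT, 5, 5, 4, 8 and 4 were higher, where 33.4% of all genes were. By median-of-ratios scaling 1, 1, 1, 4 and 0 were higher, against 15.5% of all genes, and 1 core and 1 planar polarity gene were lower, against 23.7%. The target that was higher in csnk1a1 g3UTR was cdx4, with 12.2 CPM and a ratio of 3.08 (2.73 to 3.48).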

How the data were processed

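The authors sequenced 4 libraries of 10x Chromium 3′ single-cell RNA and deposited 1 matrix of UMI counts for each, unnormalized, made per the file headers with Cell Ranger 5.0.0 (miR-128 mutant, WT) and 6.0.1 (both g3UTR libraries) against a custom zebrafish annotation with corrected 3′UTRs; the genome build is not given in the sources used here. Every deposited barcode had at least 500 UMIs. No doublet caller was run, and cells over 35000 UMIs were removed, as were cells under 200 genes or over 20% mitochondrial UMIs. Cells were gated by 116 marker genes, after 9 of the 125 listed ones were left out because over 25% of the cells of a library had them. This limit was applied to the blood, haemogenic and outside panels alone, not to the pan-endothelial, arterial, tip or venous and lymphatic ones. A further alternative gated the cells after thinning to 4500 UMIs. UMIs were summed per class and library, sums of under 20 cells left out, and tested with edgeR 4.0.16 (filterByExpr, TMM, quasi-likelihood F-test, library as a block; R 4.3.3), with DESeq2 1.42.0 as an alternative. Between libraries, CPM ratios carry exact conditional binomial 95% intervals, and CPM of a class exact Poisson ones, both of counting error only (SciPy 1.17.1). A count of 0 was read as up to 3 UMIs. The class comparison was tested on simulated data. Values in every library are printed for members with at least 10 CPM in ECs, called between classes with at least 5 CPM in the higher class, or past 1.5-fold with at least 100 UMIs; the others by range. Members, lists and gates were chosen with earlier results of these data known. All 61 members' symbols were found in the RefSeq gene table.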

Additional observations from a re-analysis of the deposited data

Results flagged for a closer look

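The levels of 17 members with at least 10 CPM in endothelial cells were examined for a library that stands far from the other 3, by the gap to its nearest neighbour over the whole range. In 2 of them jag1b g3UTR stood apart on total-UMI CPM. dvl2 had 28.2 CPM in jag1b g3UTR, against 24.0 in miR-128 mutant cells, 24.4 in csnk1a1 g3UTR and 24.7 in WT. fzd2 had 59.3 CPM in jag1b g3UTR, against 43.2 in miR-128 mutant cells, 45.6 in csnk1a1 g3UTR and 44.4 in WT. Against WT, dvl2 had a ratio of 1.14 in jag1b g3UTR and fzd2 one of 1.34, whereas with median-of-ratios scaling the ratio was 0.859 for dvl2, in the other direction, and 1.004 for fzd2, so both gaps rest on the scale. Such a gap arises by chance in about 1 in 20 groups.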

How the results depend on the processing

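Of the counts of called members under alternative settings, 94 stayed within 1.5 times the reported count and 4 did not. The count of tip against arterial ECs, 5 members, was 3 with no library block and 3 with a stricter gate. Restricted to arterial ECs, 3 members passed 1.5-fold between the miR-128 mutant and WT in place of 10, and 7 between csnk1a1 g3UTR and jag1b g3UTR in place of 12, where fewer cells leave fewer members with 50 UMIs. Leaving out each library in turn gave 11 to 13 called members in venous, 4 to 5 in tip and 12 to 13 in haemogenic ECs, 23 to 25 in nHSPCs and 28 to 31 in erythroid and myeloid cells, all against arterial ECs, and 16 to 20 in ECs against outside cells. The 103 called log2 differences of members were refitted under the alternatives, where 1060 values kept the call, 64 lost it and 0 changed sign. With the stricter gate 90 kept the call and 8 lost it, and gated after thinning 89 and 10. The rest of the 103 did not pass the filter on low counts there and are not in these totals. Of the members' ratios between libraries, 38 moved beyond the counting interval, and 331 did not. Ratios that fell under the UMI minimum in a setting were left out. Of those 331, 51 came from a lower UMI minimum, which leaves a ratio as it is and could move none. With median-of-ratios scaling 19 moved and 32 did not. In arterial ECs alone 9 moved and 19 did not, and in venous ECs alone 8 and 32. No paired analysis was possible because each group has 1 library, so a shared replicate number pairs nothing between libraries. An endothelial sum held 49963579 to 112975019 UMIs, so a gene with 0 UMIs could stand at up to 0.0266 to 0.0600 CPM. One library a group gives no spread for any library comparison.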
